A study of Mus musculus with 24 samples.

Results

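Imprinted genes are expressed from one parental copy, for some of them only in certain tissues. In most cases this is because a DNA methylation mark set in the egg or the sperm at an imprinting control region is kept through development. They lie in clusters in which a control region and often a long noncoding RNA govern several protein-coding neighbours, and many encode regulators of fetal and placental growth. Polycomb chromatin is known at the silent copies of some of these genes, above all in the Kcnq1ot1 and Igf2r clusters of the placenta. In embryonic stem cells (ESCs) the methylation marks can drift with culture, so that clones of one origin can express imprinted genes at unlike levels.

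The imprinted genes described here were chosen by symbol, from 49 genes in 21 known clusters, and each was read from the row with the largest summed level. Of these 49 symbols, 48 had a row among the 20633 transcripts of the table, and *Magel2* was not analysed here. *Rtl1* was below the limit for testing, which was 10 reads in at least 3 libraries, and the other 47 genes were tested among 16940 transcripts. Textbook annotation assigns 26 of the 47 to the paternal copy, 19 to the maternal copy and 2 to either, by transcript. The libraries measured the total RNA of a gene, and parental copies were not told apart.

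The study used 2 lines of male mouse E14 ESCs, each grown from 1 clone in serum with leukemia inhibitory factor, and asked what loss of the Polycomb repressive complex PRC1, or of its catalysis alone, does to gene expression. PRC1CKO cells lack *Ring1a*, carry floxed *Ring1b* and lose *Ring1b* once 4-hydroxytamoxifen (OHT) activates the ERT2-Cre of the *Rosa26* locus. PRC1CPM cells carry the substitutions I50A and D53K in *Ring1a* at all times, and OHT switches their *Ring1b* to a form with I53A and D56K, so that PRC1 is present without activity as a ubiquitin ligase. Untreated (UNT) cells and cells treated with 800 nM OHT for 72 h were sequenced in 3 libraries each, 12 in all, with *Drosophila* cells added as a calibration spike-in. Untreated PRC1CKO cells therefore already lack *Ring1a*, untreated PRC1CPM cells already have an inactive *Ring1a*, and no cells with both genes intact were compared.

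Each library held 14668159 to 27016156 reads on genes. Levels are given as normalised read counts, the reads over a gene body divided by one scale factor per library, in the order of replicates 1, 2 and 3. Fold changes are on the log2(normalised read count + 1) scale with their standard error from limma, and a gene was called, and is said to be higher or lower, at an adjusted p (Benjamini-Hochberg, over all transcripts tested) under 0.05 and a fold change above 1.5. The methods call the replicates biological, without saying how the cultures were kept apart. The p-values refer to the spread between these libraries, which limma took mostly from a mean-variance trend over all transcripts tested and less from each gene's own values. Replicate 1 stood apart in every condition: it was the highest of the 3 untreated PRC1CKO libraries for 46 of the 47 imprinted genes and for 89.1% of all transcripts tested. The same held for 34 genes and 61.1% of transcripts in OHT-treated PRC1CKO cells, 37 genes and 77.7% in untreated PRC1CPM cells and 40 genes and 84.8% in OHT-treated PRC1CPM cells. In the same order of conditions, its deposited relative scale factor lay below a trimmed-mean one: 0.668 against 0.791, 1.10 against 1.18, 0.778 against 0.917 and 1.03 against 1.35. That of OHT-treated PRC1CPM replicate 3 did too (0.909 against 0.986). The part of this scale in the height of replicate 1 was not tested. Without replicate 1 of all 4 conditions, a setting chosen after seeing the data, 16 imprinted genes were higher and 3 lower after OHT in PRC1CKO cells (19.5% and 2.12% of all transcripts), 9 and 2 in PRC1CPM cells (11.6% and 1.62% of all), and 10 differed between the untreated lines (4.65% of all). With all libraries these counts were 14, 3, 8, 2 and 9. Between the untreated lines, this setting gained *Igf2*, *Sfmbt2* and *Zim1* and lost *Kcnq1ot1* and *Peg13*.

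The cells carried the markers of ESCs. Mean levels of *Pou5f1*, the core pluripotency factor, were 4734 ± 1365 (SD, n = 3), 3126 ± 179.6, 4539.8 ± 1121 and 3860.4 ± 1181 in untreated PRC1CKO, OHT-treated PRC1CKO, untreated PRC1CPM and OHT-treated PRC1CPM cells. Of the 8 ESC markers tested, *Sox2* alone was called, lower after OHT in PRC1CKO cells at a log2 fold change of -0.89 ± 0.20 (adjusted p = 0.00051). In that comparison 3.09% of all transcripts tested were lower. The row of *Rnf2*, the symbol of *Ring1b*, covers the whole gene and not the deleted or switched exon alone, so its level (1526 ± 201 in untreated and 1546 ± 50.8 in OHT-treated PRC1CKO cells) checks nothing about the deletion.

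After OHT, 14 of the 47 imprinted genes were higher in PRC1CKO cells (29.8%, against 16.5% of all transcripts tested) and 3 were lower (6.38%, against 3.09%). In PRC1CPM cells 8 were higher (17.0%, against 13.1%) and 2 were lower (4.26%, against 1.4%). With trimmed-mean (TMM) scaling, which sets the median log2 fold change of all transcripts from 0.12 to -0.0019 in PRC1CKO and from 0.10 to -0.0072 in PRC1CPM cells, the background shares were 16.8% higher and 6.69% lower in PRC1CKO and 14.1% and 3.51% in PRC1CPM cells. For the 47 genes, log2 fold changes had a median of 0.30 in PRC1CKO and 0.22 in PRC1CPM cells. Between the untreated lines, 9 of the 47 genes differed (19.1%), against 2.69% of all transcripts. In these bulk libraries, fewer cells that express a gene and less of its RNA per cell cannot be told apart. The share higher after OHT in PRC1CPM cells thus lay near the background, whereas the share that differed between the untreated lines was above it. Without untreated PRC1CKO replicate 1, 15 genes differed between the untreated lines, against 9.27% of all transcripts. With the replicate number as a block, 14 differed, against 11.1%, or 12, against 8.97%, with the block and no mean-variance trend (chosen after seeing the data).

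**Figure D1:**
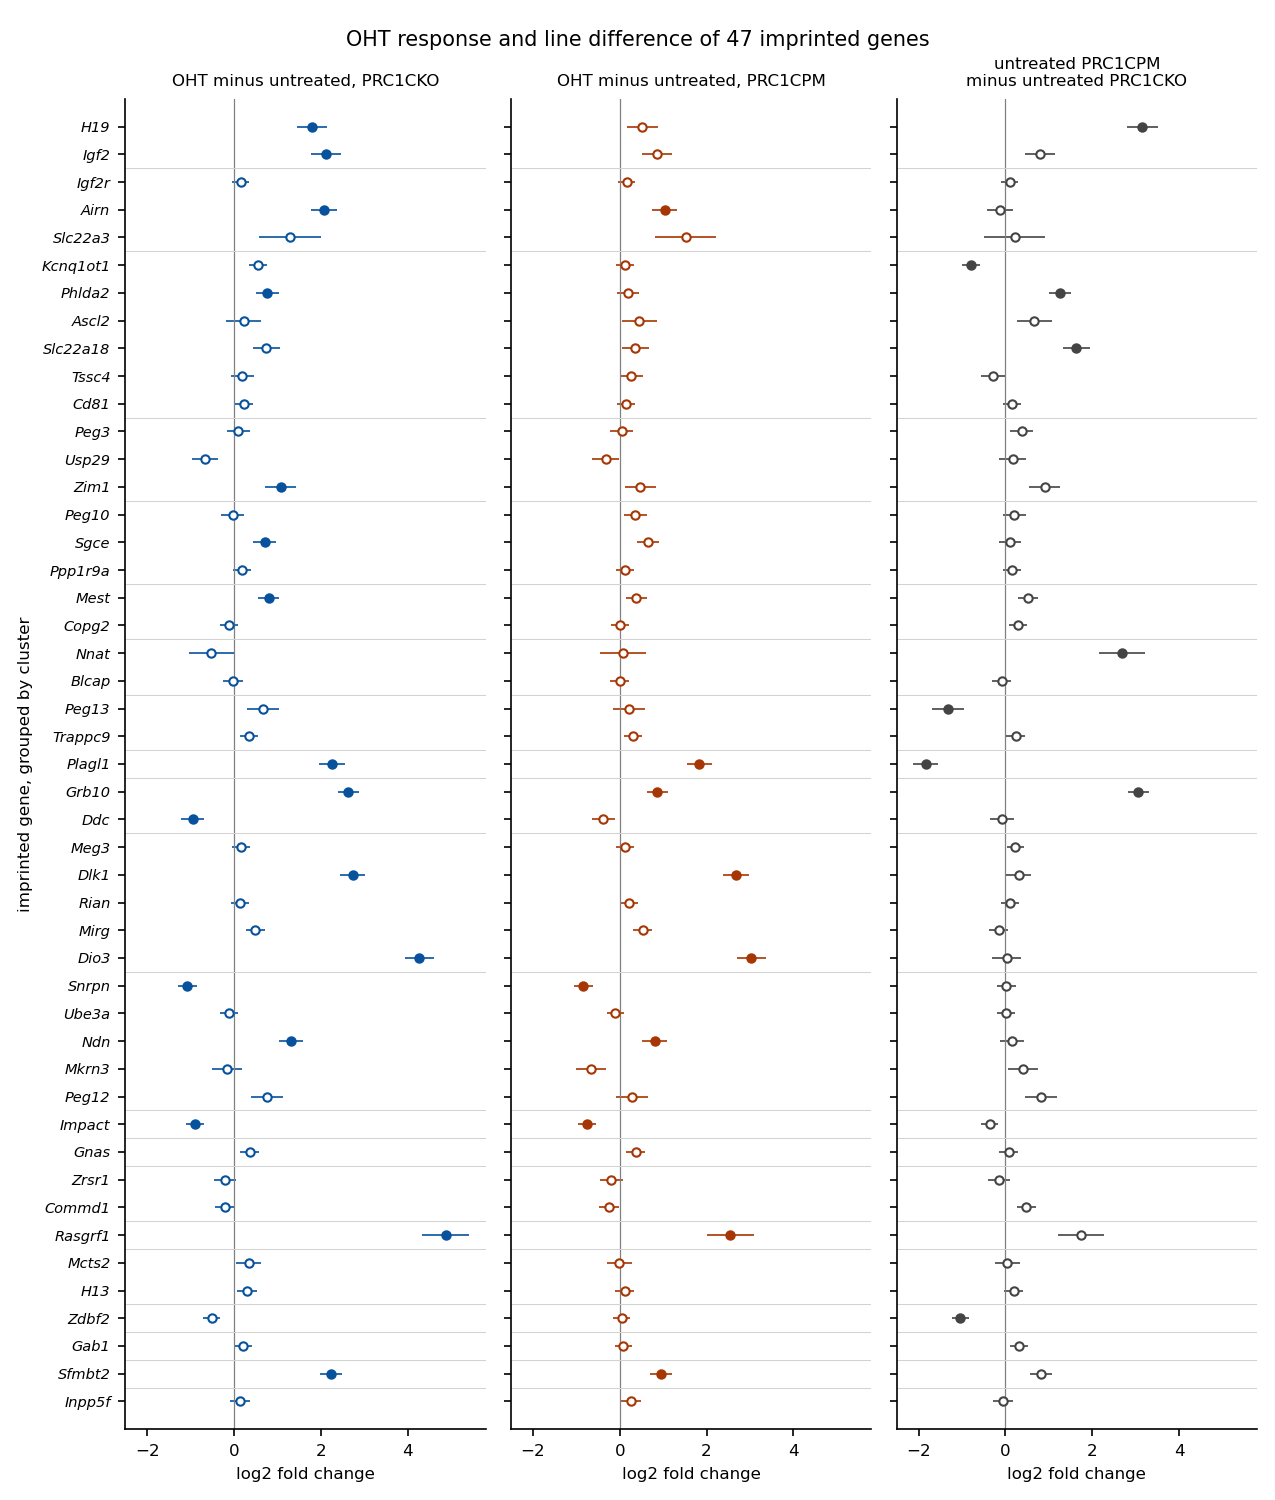
Log2 fold change with its standard error (horizontal axis) for the 47 imprinted genes tested (rows, with grey lines between clusters), after OHT in PRC1CKO cells (left), after OHT in PRC1CPM cells (middle) and between the untreated lines (right). Filled points are called genes. In the Dlk1-Meg3 cluster *Dlk1* and *Dio3* are called after OHT and *Meg3*, *Rian* and *Mirg* are not, and the right panel has 5 genes higher and 4 lower in PRC1CPM cells.

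The 8 genes that were higher after OHT in both lines were *Airn*, *Plagl1*, *Grb10*, *Dlk1*, *Dio3*, *Ndn*, *Rasgrf1* and *Sfmbt2*. Of these, 7 are among the 26 paternally expressed genes tested and 1 is among the 19 maternally expressed ones. *Dio3* encodes the deiodinase that inactivates thyroid hormone and lies at the distal end of the Dlk1-Meg3 cluster, at chr12:110279230-110281097 (mm10, plus strand). Its normalised read counts were 41.7, 22.3 and 30.4 in untreated and 580.3, 644 and 598 in OHT-treated PRC1CKO cells, and 38.4, 26.4 and 29.8 and 336, 169 and 315 in PRC1CPM cells. Treated and untreated libraries did not overlap in either line, and the log2 fold changes were 4.27 ± 0.33 (adjusted p = 6.55e-15) in PRC1CKO and 3.03 ± 0.33 (adjusted p = 7.16e-10) in PRC1CPM cells. A lack of overlap was common. After OHT, 22.1% of all transcripts tested lay wholly above and 8.52% wholly below in PRC1CKO cells, and 18.7% and 3.70% in PRC1CPM cells. Between the lines, 9.23% were wholly above and 2.55% wholly below in untreated PRC1CPM cells, and 11.9% and 4.35% in OHT-treated ones. The 250 bases before a start hold a median of 6 CpG dinucleotides over the 32851 mouse promoters of the RefSeq table (GRCm38.p6). The median is 12 over the 39 imprinted genes with an entry, and 14 over the 11 of these higher after OHT in PRC1CKO cells. It is 12 over the other 28, and the ranges of 2 to 40 in the 11 and 0 to 35 in the 28 overlap widely. The 250 bases before the start of *Dio3* hold 21. They are shown because *Dio3* had the second-largest response of the imprinted genes in PRC1CKO cells, 5′ to 3′ on the plus strand (chr12:110278980-110279229).
Dio3: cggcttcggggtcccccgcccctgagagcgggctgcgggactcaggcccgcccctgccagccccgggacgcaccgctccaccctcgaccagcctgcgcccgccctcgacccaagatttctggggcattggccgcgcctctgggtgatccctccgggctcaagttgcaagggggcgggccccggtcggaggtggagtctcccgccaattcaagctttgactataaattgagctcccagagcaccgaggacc

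*Dlk1*, at the other end of the same cluster (chr12:109452823-109463336), encodes a non-canonical ligand of Notch receptors. It rose from 206, 109 and 108 to 1091, 961 and 691 in PRC1CKO cells and from 277, 107 and 155 to 1429, 886 and 957 in PRC1CPM cells, again with no overlap. The log2 fold changes were 2.73 ± 0.29 (adjusted p = 1.27e-10) and 2.67 ± 0.29 (adjusted p = 7.41e-10). The maternally expressed noncoding RNAs between these genes were not called: *Meg3* had log2 fold changes of 0.16 ± 0.20 in PRC1CKO and 0.12 ± 0.20 in PRC1CPM cells, *Rian*, a host of small nucleolar RNAs, 0.14 ± 0.20 and 0.22 ± 0.20, and *Mirg*, a host of microRNAs, 0.49 ± 0.23 and 0.53 ± 0.23. Their levels in untreated PRC1CKO cells were high per length, at 232 normalised reads per kb for *Meg3* and 198 for *Rian*, beside 13.4 for *Dlk1* and 16.9 for *Dio3*. *Rtl1*, the retrotransposon-derived gene of the cluster, had at most 2 reads in any library.

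*Rasgrf1* encodes an exchange factor that activates Ras. It was nearly silent in untreated PRC1CKO cells, with normalised read counts of 0, 4.62 and 3.38, and reached 84.1, 77.8 and 92.5 after OHT. The PRC1CPM libraries went from 14.1, 5.65 and 8.13 to 68.5, 44.1 and 57.0. The log2 fold changes of 4.88 ± 0.54 (adjusted p = 2.4e-10) and 2.54 ± 0.54 (adjusted p = 0.000348) rest on a few reads in the untreated cells. In PRC1CKO cells the log2 fold change was 6.16 with a pseudocount of 0.1 and 4.11 without untreated replicate 1, the library at 0. The row covers chr9:89909775-89915847.

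*Sfmbt2*, a Polycomb group gene that is paternally expressed and needed in the trophoblast, rose from 4286, 1934 and 1379 to 12929.9, 8432 and 10910.4 in PRC1CKO cells and from 5316, 3302 and 3627 to 9488, 6983 and 6983 in PRC1CPM cells. Treated libraries were above untreated ones in both lines, with log2 fold changes of 2.23 ± 0.25 (adjusted p = 3.08e-10) and 0.95 ± 0.25 (adjusted p = 0.00421). *Ndn*, which encodes the MAGE family protein necdin, was at 203, 145 and 132 and 410.4, 398 and 365 in untreated and OHT-treated PRC1CKO cells and at 217, 172 and 141 and 378, 278 and 267 in PRC1CPM cells. Its groups did not overlap, at log2 fold changes of 1.31 ± 0.28 (adjusted p = 0.000265) and 0.80 ± 0.28 (adjusted p = 0.0429).

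*Airn* is the long noncoding RNA transcribed through *Igf2r*, and it silences the paternal copies of its cluster in other tissues. Its levels were 828, 505 and 240.1 in untreated and 3451, 1576 and 1383 in OHT-treated PRC1CKO cells, a log2 fold change of 2.07 ± 0.29 (adjusted p = 1.3e-07). In PRC1CPM cells they were 448, 452 and 384 and 1039.6, 871 and 735, at 1.03 ± 0.29 (adjusted p = 0.00939). *Igf2r*, the receptor that clears IGF2, overlaps *Airn* on the opposite strand and was not called, at 0.16 ± 0.20 and 0.16 ± 0.20 (95% intervals -0.23 to 0.55 and -0.23 to 0.56). *Slc22a3*, a cation transporter of the same cluster, was near the limit of detection, with 0 to 29.4 normalised reads in the 12 libraries.

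Within the Snrpn-Ube3a cluster the members moved in opposite directions. *Snrpn*, which encodes the spliceosomal protein SmN, fell from 2310.3, 2056 and 1531 to 969, 848 and 935 in PRC1CKO cells and from 2024, 1976 and 1907 to 1171, 910.0 and 1241 in PRC1CPM cells. The log2 fold changes were -1.08 ± 0.22 (adjusted p = 0.000113) and -0.84 ± 0.22 (adjusted p = 0.0039), beside the higher *Ndn*. The ubiquitin ligase gene *Ube3a*, *Mkrn3* and *Peg12* were not called in either line in the fit without a replicate block. *Impact*, on another chromosome, encodes an inhibitor of the kinase GCN2 and was the other gene lower in both lines. Its levels were 4531, 3554 and 3555 and 2026, 2194 and 2019 in PRC1CKO and 2899.8, 3020.4 and 3054 and 1813, 1502 and 2021 in PRC1CPM cells, with log2 fold changes of -0.89 ± 0.20 (adjusted p = 0.000641) and -0.76 ± 0.20 (adjusted p = 0.00547). *Snrpn* and *Impact* did not overlap between treated and untreated libraries of either line.

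**Figure D2:**
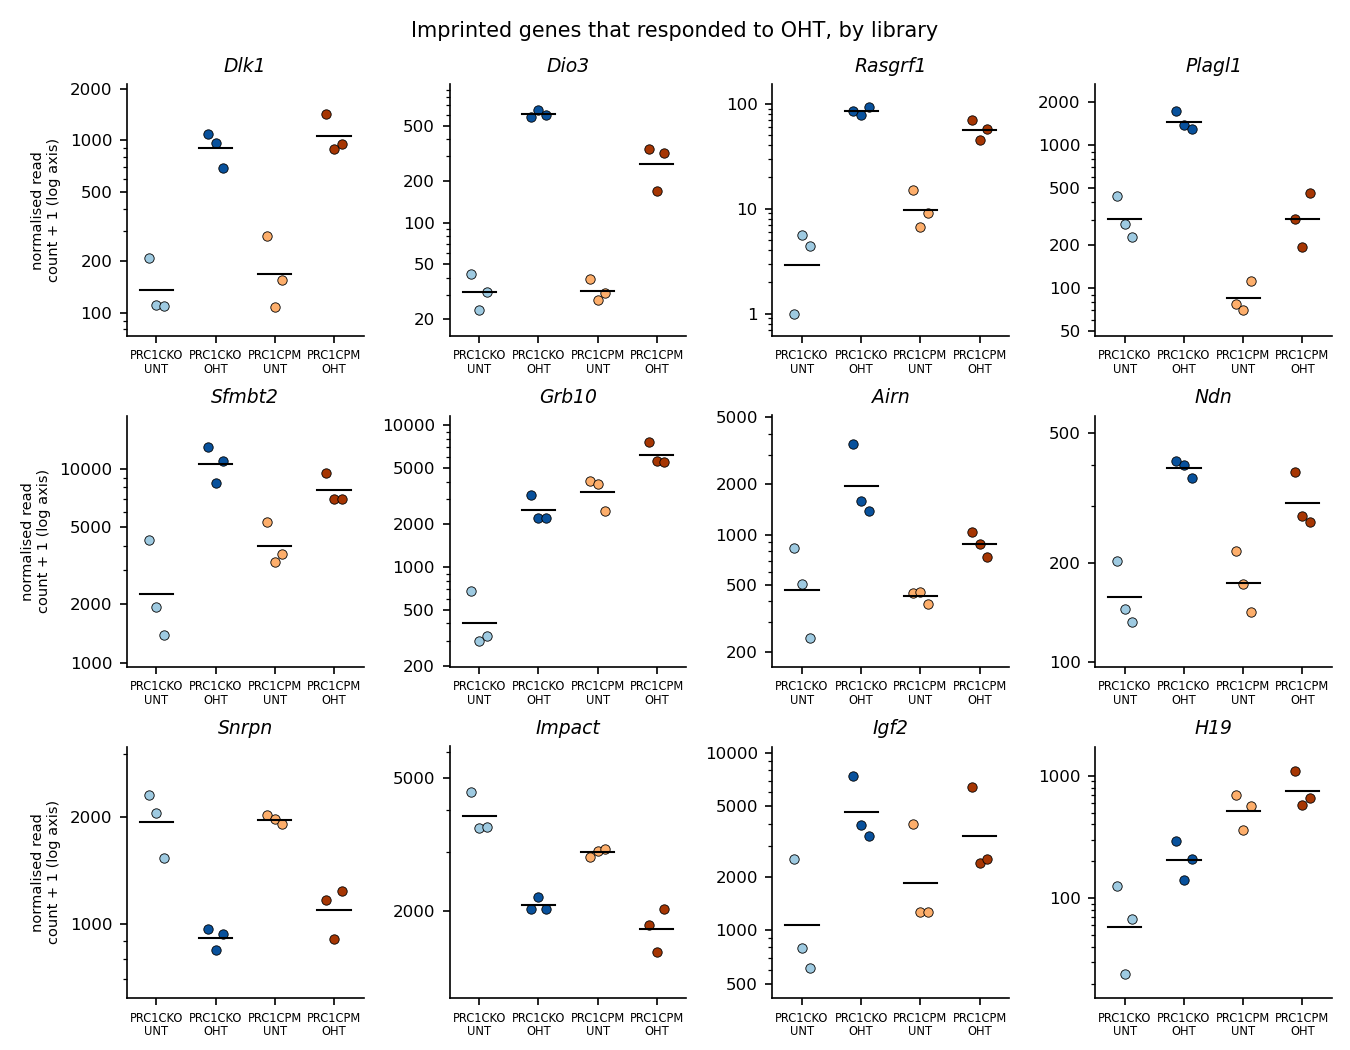
Normalised read count + 1 (vertical log axis) of 12 imprinted genes in the 12 libraries, with 3 libraries for each of untreated (UNT) and OHT-treated PRC1CKO and PRC1CPM cells. Points are libraries, from replicate 1 to 3 from left to right, and bars are geometric means. *Dio3* starts from a like level in both untreated lines and *Plagl1*, *Grb10* and *H19* do not, and *Snrpn* and *Impact* fall in both lines.

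A further 6 genes were higher, and 1 lower, after OHT in PRC1CKO cells without being called in PRC1CPM cells, and none of these 7 differences between the lines' responses passed the test of the interaction, although with the replicate number as a block *Igf2* and *H19* did in limma with the trend and in edgeR, and not in limma without the trend. With the block, *Igf2* and *Sgce* were also called higher in PRC1CPM cells, with or without the trend. *Igf2*, the fetal growth factor, was at 2535, 797 and 611 in untreated and 7393, 3935 and 3413 in OHT-treated PRC1CKO cells (log2 fold change 2.11 ± 0.35, adjusted p = 3.1e-06), and at 3988, 1275 and 1263 and 6415, 2401 and 2514 in PRC1CPM cells (0.86 ± 0.35, adjusted p = 0.0926). Its PRC1CPM groups overlapped, and in all 4 conditions replicate 1 was the highest. *H19*, the maternally expressed noncoding RNA downstream of *Igf2*, had a log2 fold change of 1.79 ± 0.35 (adjusted p = 8.29e-05) in PRC1CKO and 0.52 ± 0.35 (adjusted p = 0.452) in PRC1CPM cells. *Mest*, an alpha/beta hydrolase gene, *Phlda2*, a restraint on placental growth, *Sgce*, which encodes epsilon-sarcoglycan, and the zinc finger gene *Zim1* rose by smaller amounts, with log2 fold changes in PRC1CKO cells of 0.80 ± 0.24, 0.77 ± 0.26, 0.70 ± 0.26 and 1.07 ± 0.36 (adjusted p from 0.0108 to 0.0431). Treated and untreated libraries overlapped for *Sgce* and *Zim1*. In PRC1CPM cells their log2 fold changes were 0.38 ± 0.24, 0.19 ± 0.26, 0.66 ± 0.26 and 0.47 ± 0.36, in the same order (adjusted p = 0.399, 0.793, 0.0787 and 0.526), so that *Sgce* had like values in both lines, and its PRC1CPM groups did not overlap. *Ddc*, the dopa decarboxylase gene next to *Grb10*, fell from 447, 410.2 and 416 to 228, 221 and 207 in PRC1CKO cells (-0.95 ± 0.27, adjusted p = 0.00673) and was at -0.37 ± 0.27 in PRC1CPM cells (adjusted p = 0.495).

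Some of these calls depended on single libraries or on the fit. In PRC1CKO cells *Phlda2* and *Sgce* lost the call without untreated replicate 2 or 3 or OHT replicate 1 or 3 (adjusted p up to 0.235 and 0.368), *Zim1* without untreated replicate 2 or 3 or OHT replicate 1 (up to 0.182), and *Mest* without untreated replicate 3 or OHT replicate 1 (up to 0.145), and *Sgce* was not called by edgeR or DESeq2. DESeq2 also did not call *Airn* after OHT in PRC1CPM cells (adjusted p = 0.134). In PRC1CPM cells *Airn* lost the call without OHT replicate 1 (0.0599), *Grb10* without untreated replicate 3 or OHT replicate 1 (up to 0.149), and *Ndn* without any 1 of 7 libraries, namely the 3 OHT-treated PRC1CKO libraries, untreated PRC1CPM replicates 2 and 3 and OHT-treated PRC1CPM replicates 1 and 3 (up to 0.267). With no mean-variance trend, *Mest*, *Phlda2*, *Sgce* and *Zim1* were not called in PRC1CKO cells (adjusted p = 0.103, 0.0812, 0.124 and 0.0904), and *Airn*, *Grb10* and *Sfmbt2* were not called in PRC1CPM cells (adjusted p = 0.144, 0.112 and 0.117). With no filter on low counts, *Zim1* and *Sgce* in PRC1CKO and *Ndn* in PRC1CPM cells lost the call (adjusted p = 0.0694, 0.0692 and 0.0615), *Sgce* also did with a pseudocount of 0.1 (0.0549), and *Ndn* also did in the 6 PRC1CPM libraries alone (0.0770). *Mest*, *Phlda2*, *Sgce*, *Ddc* and *Impact* in PRC1CKO cells and *Grb10*, *Snrpn*, *Ndn*, *Impact* and *Sfmbt2* in PRC1CPM cells changed by less than 2-fold.

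The response of *Grb10* differed between the lines in the test of the interaction, a call that several other settings did not give. The gene encodes an adaptor that binds the insulin receptor and restrains growth, is maternally expressed in most tissues, and spans chr11:11930499-12037420 on the minus strand. Normalised read counts were 682, 301 and 323 in untreated and 3239.7, 2212 and 2231 in OHT-treated PRC1CKO cells, and 4071, 3837 and 2464 and 7664, 5576 and 5475 in PRC1CPM cells. Every untreated PRC1CPM library was thus above every untreated PRC1CKO library, and treated libraries were above untreated ones in both lines. The log2 fold change after OHT was 2.63 ± 0.24 (adjusted p = 1.88e-12) in PRC1CKO and 0.87 ± 0.24 (adjusted p = 0.00876) in PRC1CPM cells. The difference between these responses was -1.77 ± 0.35 (adjusted p = 0.0274), and *Grb10* was the 1 imprinted gene of 47 called in this test, in which 4 of all 16940 transcripts (0.0236%) were called. These 4 were both *Grb10* rows, *Mecom* and *Ebf2*. Because the difference between the untreated lines enters the interaction with the opposite sign, these comparisons share their libraries, and the untreated line difference of 3.06 ± 0.24 (adjusted p = 3.1e-13) is given beside it. The interaction lost its call without untreated PRC1CKO replicate 3, OHT-treated PRC1CKO replicate 1 or OHT-treated PRC1CPM replicate 2 or 3 (adjusted p from 0.108 to 0.340), with no filter on low counts (0.244), with a pseudocount of 0.1 (0.177) and with no trend (0.539). In the interaction 7 of the 47 genes had an unadjusted limma p under 0.05, and the share of all transcripts at that limit is not given here. With the replicate number as a block, the interaction called *Airn*, *Dio3*, *H19*, *Igf2*, *Rasgrf1* and *Sfmbt2* beside *Grb10*, 7 of the 47 genes against 1.91% of all transcripts. In that fit limma took the spread of each gene wholly from the mean-variance trend. With the block and no trend, the interaction called 0 of the 47 genes and 0 of all transcripts (adjusted p of *Grb10* = 0.0892), and edgeR with the block called 6 of the 47 genes, against 2.02% of all transcripts. The SD of *Grb10* between libraries was 0.43 on the log2 scale, and 0.30 after limma moderated it.

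The promoter of *Grb10* is the most CpG-rich of the 39 imprinted genes with an entry in the RefSeq table, with 40 CpG dinucleotides in 250 bases. It is shown for that reason, with that of *Plagl1*, the other gene that both responded to OHT in each line and differed between untreated lines, as the 250 bases before each RefSeq start, 5′ to 3′ on the strand of the gene (GRCm38.p6, chr11:12037421-12037670, minus strand, and chr10:13090582-13090831, plus strand). The window of *Plagl1* ends 44 bases inside the row measured, whose start lies upstream of that RefSeq start. Capitals mark TGCCGC or its reverse complement GCGGCA, the core of the motif that the zinc finger protein ZFP57 binds when methylated to keep imprints.
Grb10: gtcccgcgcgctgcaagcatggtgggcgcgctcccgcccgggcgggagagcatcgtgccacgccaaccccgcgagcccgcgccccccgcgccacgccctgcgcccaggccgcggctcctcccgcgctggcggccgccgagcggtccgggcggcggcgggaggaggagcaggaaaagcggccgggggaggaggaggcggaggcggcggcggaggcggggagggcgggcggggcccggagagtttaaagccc
Plagl1: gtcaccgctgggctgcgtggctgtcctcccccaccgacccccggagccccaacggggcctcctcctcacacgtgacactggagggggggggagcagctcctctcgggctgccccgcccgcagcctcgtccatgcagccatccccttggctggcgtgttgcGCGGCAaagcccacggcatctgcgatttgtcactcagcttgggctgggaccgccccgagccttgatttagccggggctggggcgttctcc
The hexamer was searched for on both strands. It was present in the 250-base windows of 6 of the 39 imprinted genes (15.4%) and of 2850 of 32851 promoters (8.68%). It was absent from that of *Grb10*, and its presence or absence says nothing about binding.

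*Plagl1* encodes a zinc finger transcription factor that limits proliferation and is paternally expressed. It was at 439, 282 and 226 in untreated and 1735, 1386 and 1284 in OHT-treated PRC1CKO cells, and at 76.7, 69.7 and 111 and 305, 194 and 464 in PRC1CPM cells. The log2 fold changes after OHT were 2.26 ± 0.29 (adjusted p = 1.45e-08) and 1.83 ± 0.29 (adjusted p = 3.54e-06). Untreated PRC1CPM cells were lower than untreated PRC1CKO cells by 1.84 ± 0.29 on the log2 scale (adjusted p = 4.07e-05), with no overlap. OHT-treated PRC1CPM libraries spanned the range of untreated PRC1CKO libraries, so that a gene called higher after OHT in both lines ended at unlike levels.

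The untreated lines differed in 9 imprinted genes. Those higher in PRC1CPM cells were *H19*, *Phlda2*, *Slc22a18*, *Nnat* and *Grb10* (10.6% of 47, against 2.21% of all transcripts), of which *Nnat* alone is paternally expressed. Those lower were *Kcnq1ot1*, *Peg13*, *Plagl1* and *Zdbf2* (8.51%, against 0.478%), and all 4 are paternally expressed. Of the 47 genes tested, 26 are paternally and 19 maternally expressed, and a link of direction to parental class was not tested. The lines differ in clone, in their *Ring1a* allele and in their *Ring1b* cassette, and these cannot be told apart. With TMM scaling all 9 genes were still called, and 4.40% of all transcripts were higher and 1.80% lower between the untreated lines.

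*H19* was at 124, 23.1 and 66.0 in untreated PRC1CKO and 688, 360.0 and 561 in untreated PRC1CPM cells, a log2 difference of 3.15 ± 0.35 (adjusted p = 1.38e-08). After OHT it was at 289, 139 and 206 and 1098, 574 and 653, a difference of 1.87 ± 0.35 (adjusted p = 0.00092). The untreated PRC1CPM libraries were thus above the OHT-treated PRC1CKO libraries as well. Its reciprocal neighbour *Igf2* was not called between the lines with all libraries, at 0.79 ± 0.35 in untreated and -0.45 ± 0.35 in OHT-treated cells (adjusted p = 0.26 and 0.765). Within each replicate number, however, *Igf2* was higher in untreated PRC1CPM than untreated PRC1CKO cells, and lower in OHT-treated PRC1CPM than OHT-treated PRC1CKO cells. Between the untreated lines it was called without replicate 1 of all conditions.

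In the Kcnq1ot1 cluster, the paternally expressed noncoding RNA that silences the cluster was lower in PRC1CPM cells and 2 of its maternally expressed targets were higher. *Kcnq1ot1* was at 8286, 7719 and 5200.4 in untreated PRC1CKO and 4025, 4375 and 3652 in untreated PRC1CPM cells (-0.79 ± 0.21, adjusted p = 0.0212). It was at 11957, 8410.1 and 10397 and 5133, 4082 and 3886 after OHT (-1.23 ± 0.21, adjusted p = 0.000128). No library of one line overlapped the other line at either treatment. The organic cation transporter gene *Slc22a18* was at 129.6, 69.3 and 89.6 and 409, 222 and 269.8 in the untreated lines (1.63 ± 0.31, adjusted p = 0.00066) and at 184, 134 and 155 and 559.9, 268 and 343 after OHT (1.24 ± 0.31, adjusted p = 0.0203). *Phlda2* was at 399, 205 and 291 and 889.9, 524 and 698 in the untreated lines (1.25 ± 0.26, adjusted p = 0.00229) and at 541, 435 and 501 and 855, 619 and 917 after OHT (0.68 ± 0.26, adjusted p = 0.228). The response to OHT in PRC1CKO cells had the same sign for *Kcnq1ot1* (0.55 ± 0.21), *Slc22a18* (0.75 ± 0.31) and *Phlda2* (0.77 ± 0.26), of which *Phlda2* alone was called. *Ascl2*, *Tssc4* and *Cd81*, on the centromeric side of *Kcnq1ot1*, were not called in any comparison, although *Ascl2* was with the replicate number as a block.

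*Nnat* encodes the proteolipid neuronatin and lies within *Blcap*, on the opposite strand. It had 14.9, 4.62 and 13.5 normalised reads in untreated PRC1CKO and 76.7, 66.0 and 65.1 in untreated PRC1CPM cells, a log2 difference of 2.68 ± 0.53 (adjusted p = 0.00105). After OHT it had 3.62, 3.70 and 19.2 and 89.8, 35.6 and 120.5, a difference of 3.28 ± 0.53 (adjusted p = 6.23e-05), and the lines did not overlap at either treatment. *Blcap* was not called, at -0.087 ± 0.22 and -0.06 ± 0.22 between the lines, and neither gene was called after OHT.

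*Peg13* is a noncoding RNA that lies inside *Trappc9* on the same strand. Its levels were 104, 67.0 and 85.4 and 33.2, 30.2 and 36.6 in the untreated lines (-1.32 ± 0.37, adjusted p = 0.0363) and 157, 111 and 139 and 56.0, 37.1 and 28.5 after OHT (-1.76 ± 0.37, adjusted p = 0.00356). Reads of the host count for it too: in untreated PRC1CPM cells it had 6.38 to 7.75 normalised reads per kb, beside 4.57 to 6.70 over the rest of *Trappc9*, against 14.2 to 22.1 beside 4.06 to 5.71 in untreated PRC1CKO cells. In PRC1CPM cells the level of *Peg13* therefore lay near that of its host, and *Trappc9* itself was not called (0.24 ± 0.22 between the untreated lines).

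*Zdbf2*, a zinc finger gene of a cluster of its own, was at 10319.8, 8882 and 7479 in untreated PRC1CKO and 4198, 4424 and 4228 in untreated PRC1CPM cells, a log2 difference of -1.04 ± 0.20 (adjusted p = 0.000623) with no overlap. After OHT the levels were 6454, 5816 and 6345 and 5067, 3691 and 4597, and the difference of -0.49 ± 0.20 was not called (adjusted p = 0.269), although the groups did not overlap. Its promoter is shown because it holds the ZFP57 hexamer (capitals, TGCCGC or GCGGCA) 3 times, more than any other of the 39 imprinted genes, at 155, 136 and 107 bases before the start, and that of *Nnat*, which holds none, is shown beside it (chr1:63200108-63200357 and chr2:157559828-157560077, both plus strand, GRCm38.p6).
Zdbf2: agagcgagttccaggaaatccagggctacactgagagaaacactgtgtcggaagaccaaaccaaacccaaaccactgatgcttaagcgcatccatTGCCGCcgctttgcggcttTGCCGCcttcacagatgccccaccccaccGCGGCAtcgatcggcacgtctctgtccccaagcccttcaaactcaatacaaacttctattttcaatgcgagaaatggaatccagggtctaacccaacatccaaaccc
Nnat: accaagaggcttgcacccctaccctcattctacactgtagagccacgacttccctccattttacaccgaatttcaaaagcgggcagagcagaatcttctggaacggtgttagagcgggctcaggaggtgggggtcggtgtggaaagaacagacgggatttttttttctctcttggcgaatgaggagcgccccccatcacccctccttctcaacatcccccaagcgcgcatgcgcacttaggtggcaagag

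**Figure D3:**
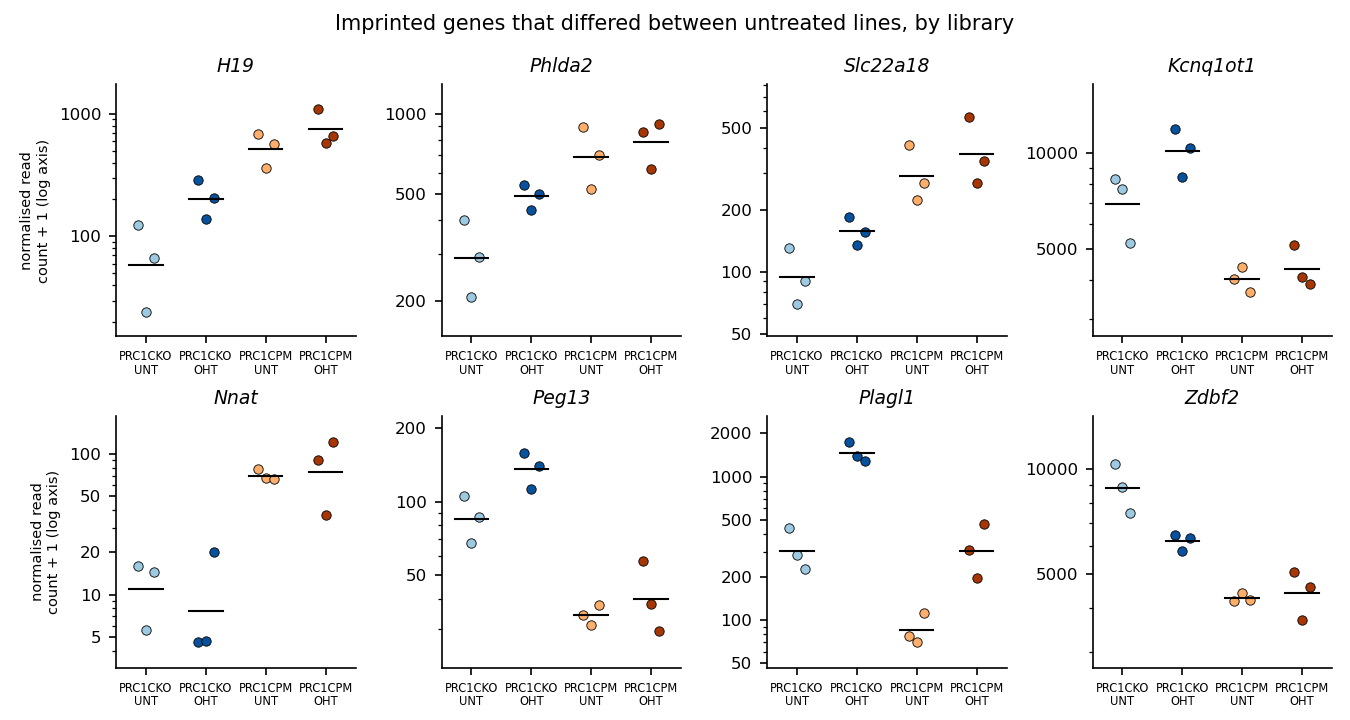
Normalised read count + 1 (vertical log axis) of 8 imprinted genes that differed between the untreated lines, in the 12 libraries of the 4 conditions. Points are libraries, from replicate 1 to 3 from left to right, and bars are geometric means. *H19*, *Phlda2*, *Slc22a18* and *Nnat* are higher and *Kcnq1ot1*, *Peg13*, *Plagl1* and *Zdbf2* lower in untreated PRC1CPM than in untreated PRC1CKO cells.

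Between the OHT-treated lines, 9 of 47 genes differed again (19.1%, against 1.47% of all transcripts, of which 1.25% were higher and 0.218% lower, or 3.09% and 1.54% with TMM scaling). The calls and directions of *H19*, *Slc22a18*, *Nnat*, *Grb10*, *Kcnq1ot1*, *Peg13* and *Plagl1* were those of the untreated lines. The comparisons average different libraries, but all 12 enter the estimate of the spread in both. *Airn* and *Dio3*, which were at -0.12 ± 0.29 and 0.029 ± 0.33 between the untreated lines and not called, were lower in OHT-treated PRC1CPM cells, at -1.17 ± 0.29 (adjusted p = 0.0224) and -1.21 ± 0.33 (adjusted p = 0.0449). *Grb10* differed by 1.29 ± 0.24 after OHT (adjusted p = 0.00092) and *Plagl1* by -2.27 ± 0.29 (adjusted p = 4.43e-07). Of the calls between untreated lines, *Kcnq1ot1* was lost without untreated PRC1CKO replicate 2 or PRC1CPM replicate 3 (adjusted p = 0.107 and 0.108), and *Peg13* without any 1 of 6 libraries, the 3 untreated PRC1CPM ones, untreated PRC1CKO replicate 3 and OHT-treated PRC1CKO replicates 2 and 3 (up to 0.123). Both were also lost in the 6 untreated libraries alone (limma adjusted p = 0.0515 and 0.108). After OHT, *Dio3* was lost without any 1 of the 6 treated libraries (up to 0.249), *Airn* without PRC1CKO replicate 1 or PRC1CPM replicate 2 or 3 (up to 0.281) and by DESeq2 (0.138), *Slc22a18* without PRC1CKO replicate 2 or 3 or PRC1CPM replicate 1 (up to 0.249), and *Peg13* without PRC1CPM replicate 3 (0.0535). A pseudocount of 0.1 also removed the calls of *Airn* and *Dio3* between the OHT-treated lines (limma adjusted p = 0.0662 and 0.0607). With no mean-variance trend, *H19*, *Grb10*, *Airn*, *Dio3* and *Slc22a18* were not called between the OHT-treated lines (adjusted p = 0.117, 0.0900, 0.282, 0.0775 and 0.102) and *Kcnq1ot1* was not called between the untreated lines (0.112). Without replicate 1 of all 4 conditions, *Nnat*, *Airn* and *Slc22a18* were not called between the OHT-treated lines (adjusted p = 0.0554, 0.148 and 0.0734). With no filter on low counts, *Airn*, *Dio3* and *Slc22a18* between the OHT-treated lines (adjusted p = 0.107, 0.106 and 0.0718) and *Kcnq1ot1* and *Peg13* between the untreated lines (0.0517 and 0.0745) lost the call.

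**Figure D4:**
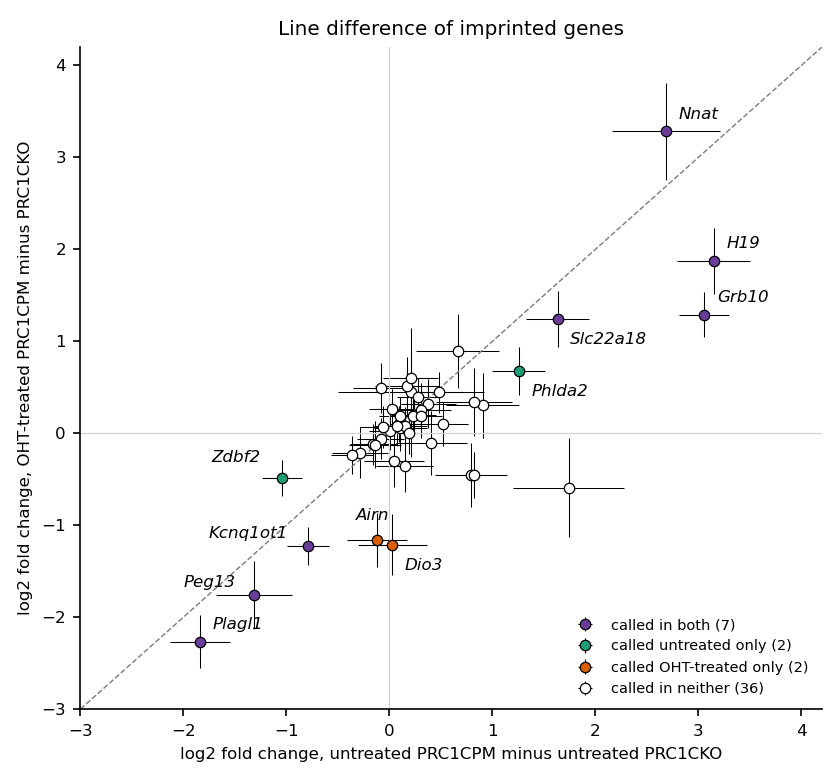
Log2 difference between the lines, PRC1CPM minus PRC1CKO, in untreated cells (horizontal axis) and in OHT-treated cells (vertical axis) for the 47 imprinted genes, with standard errors. The dashed line marks equal differences, and 7 genes were called in both comparisons, 2 in untreated cells, 2 in OHT-treated cells and 36 in neither.

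The differences between lines were set beside those of the surrounding genes. The median log2 difference between untreated lines was 0.45 over the 1380 transcripts tested on chromosome 11, 0.31 on chromosome 6 and -0.10 on chromosome 1, and 0.12 over all transcripts. *Grb10*, on chromosome 11, exceeded its chromosome's median by 2.61, *Nnat* by 2.60 and *H19* by 3.04, and the difference of *Plagl1* from its own was -1.91. Within 250 kb of the 9 genes, leaving out genes of the imprinted lists, 32 other genes were tested and 4 were called (12.5%, against 2.69% of all transcripts), namely *Tnnt3* and *Tnni2* near *H19*, *Ikzf1* near *Grb10* and *Ino80dos* near *Zdbf2*. The log2 differences of all 32 neighbours ran from -0.91 to 3.48 with a median of 0.25. Those near *H19* ran from 0.25 to 3.48 (median 0.93) and those near *Zdbf2* from -0.91 to -0.048 (median -0.47). Medians were 0.76 near *Kcnq1ot1*, 0.36 near *Phlda2* and *Slc22a18*, 0.17 near *Grb10*, 0.056 near *Plagl1* and 0.016 near *Nnat*.

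**Figure D5:**
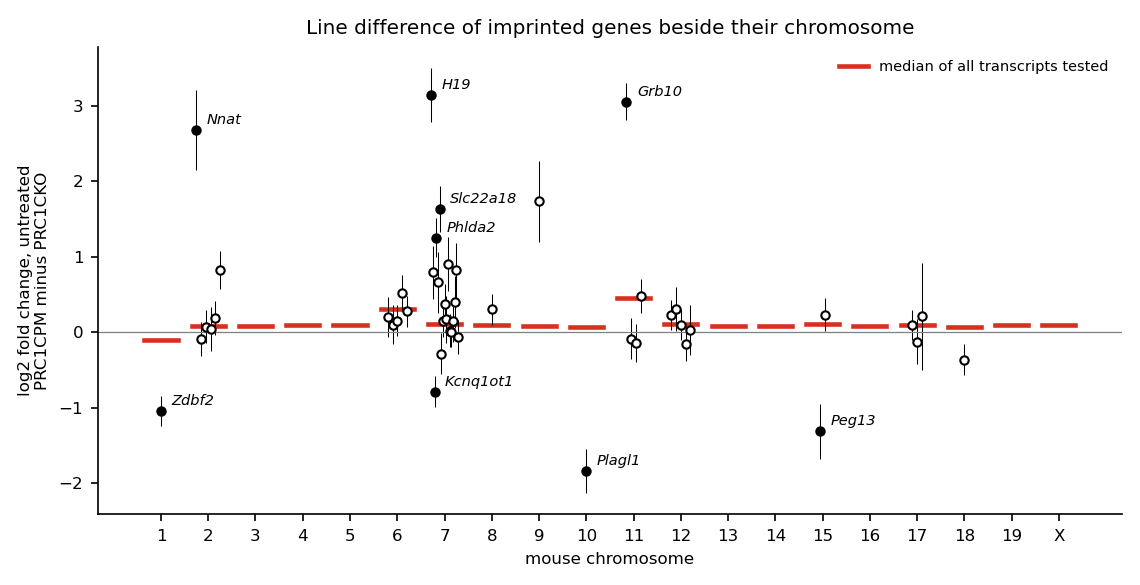
Log2 difference between untreated lines, PRC1CPM minus PRC1CKO (vertical axis), for the 47 imprinted genes by chromosome (points with standard errors, filled where called) and the median of all transcripts tested on each chromosome (red bars). Chromosomes 6 and 11 have raised medians of 0.31 and 0.45, and the 9 called genes (filled) lie off their bars.

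Of the 47 imprinted genes, 25 were called in none of the 5 comparisons. The share of all transcripts called in none is not given here, so this number is no result about imprinted genes as a set. Among the 25 were the abundant *Peg10*, *Cd81*, *Igf2r*, *Meg3*, *Rian*, *Peg3*, *Ppp1r9a*, *Copg2*, *Ube3a*, *Gnas* and *Gab1*. *Peg10*, a retrotransposon-derived gene of the placenta, had the highest level per length in untreated PRC1CKO cells, at 577 normalised reads per kb, and log2 fold changes after OHT of -0.034 ± 0.27 in PRC1CKO and 0.36 ± 0.27 in PRC1CPM cells. *Peg3*, a zinc finger gene, was at 0.10 ± 0.27 and 0.045 ± 0.27, and *Gnas*, which encodes the stimulatory G protein subunit, at 0.36 ± 0.22 and 0.37 ± 0.22, although the row of *Gnas* spans several promoters of opposite imprint. Uncalled genes ranged from -0.67 to 1.29 on the log2 scale after OHT in PRC1CKO cells and from -0.66 to 1.52 in PRC1CPM cells. With the replicate number as a block, 19 of the 47 were called in none, or 22 with the block and no trend. The block also raised the share of all transcripts called. Between the untreated lines it went from 2.69% to 11.1%, or to 8.97% with the block and no trend. The block added *Peg12*, *Usp29*, *Mkrn3*, *Slc22a3*, *Ascl2* and *Peg10* to the genes called somewhere, of which *Peg12*, *Usp29* and *Ascl2* were also called with the block and no trend. By cluster, 13 of the 21 held a gene called after OHT, 9 held a gene that differed between lines and 16 held either. The clusters held 1 to 6 tested genes each, and the share for groups of other genes of like size is not given here. These counts are thus no result about imprinted clusters.

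A second list of 37 imprinted genes outside the 49, of which 28 were tested, gave 12 higher and 1 lower after OHT in PRC1CKO cells (16.5% and 3.09% of all transcripts), 11 and 0 in PRC1CPM cells (13.1% and 1.4% of all) and 3 and 0 between the untreated lines (2.21% and 0.478% of all). Between the OHT-treated lines this list gave 0 higher and 0 lower (1.25% and 0.218% of all). *Cdkn1c*, the cell cycle inhibitor silenced by *Kcnq1ot1* on the paternal copy, was at 235, 82.3 and 132 in untreated and 859.6, 711 and 557 in OHT-treated PRC1CKO cells, and at 607, 354 and 484 and 1629, 884 and 926 in PRC1CPM cells. It had log2 fold changes of 2.34 ± 0.29 (adjusted p = 5.29e-09) and 1.22 ± 0.29 (adjusted p = 0.00149) after OHT and of 1.77 ± 0.29 (adjusted p = 7.44e-05) between the untreated lines, the direction of *Phlda2* and *Slc22a18*. *Dio3os*, on the strand opposite *Dio3*, rose by 3.57 ± 0.53 and 2.86 ± 0.53, and *Atp10a*, which neighbours *Ube3a*, by 1.56 ± 0.23 and 0.88 ± 0.23. The amino acid transporter gene *Slc38a4*, the most abundant of the list, was at -0.0044 ± 0.21 and 0.068 ± 0.21 and was not called.

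Of 22 tested regulators of imprints, 2 were higher and 1 lower after OHT in PRC1CKO cells (16.5% and 3.09% of all transcripts). In PRC1CPM cells 1 was higher and 1 lower (13.1% and 1.4% of all), and 1 was higher between the untreated lines (2.21% of all). *Tet2*, a 5-methylcytosine oxidase, was lower after OHT in both lines (-1.08 ± 0.24 and -0.77 ± 0.24). *Ctcfl*, the germline paralogue of CTCF, was higher in both (1.25 ± 0.26 and 0.80 ± 0.26) and higher in untreated PRC1CPM than PRC1CKO cells (1.25 ± 0.26). *Dnmt3b*, a de novo DNA methyltransferase, was higher after OHT in PRC1CKO cells (0.68 ± 0.23). Regulators that keep imprints were not called: *Zfp57* was at -0.044 ± 0.22, -0.0039 ± 0.22 and 0.09 ± 0.22, *Trim28* at -0.22 ± 0.21, -0.25 ± 0.21 and 0.04 ± 0.21, and *Dnmt1* at -0.11 ± 0.21, -0.13 ± 0.21 and 0.072 ± 0.21, after OHT in PRC1CKO, after OHT in PRC1CPM and between the untreated lines.

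Markers of other lineages moved with OHT in the same libraries, and their part in the results for imprinted genes was not tested. For comparison, 16.5% of all transcripts tested were higher and 3.09% lower after OHT in PRC1CKO cells, and 13.1% and 1.4% in PRC1CPM cells. Between the untreated lines these shares were 2.21% and 0.478%, and between the OHT-treated lines 1.25% and 0.218%. Of 8 trophoblast markers tested, 5 were higher and 1 lower in PRC1CKO cells and 4 were higher in PRC1CPM cells. The summed level of the trophoblast list was 1794, 2090.2 and 2449 in untreated and 1936, 1987 and 2517 in OHT-treated PRC1CKO cells, and 1599.5, 1694 and 2027 and 2207, 2533 and 3445 in PRC1CPM cells (lowest, median and highest library). Its most abundant gene was *Tfap2c*, and *Elf5*, a defining marker, was below the limit for testing. Of 7 primitive endoderm markers tested, 5 and 7 were higher in the 2 lines, with sums of 495, 789.6 and 1381 and 2393, 2433 and 3218 in PRC1CKO and 568, 669 and 679 and 1323, 1697 and 1940.2 in PRC1CPM cells. Its most abundant gene was *Dab2*, and *Afp* and *Ttr* were at or near 0. The 6 neural progenitor markers had 4 higher and 1 lower in PRC1CKO and 3 higher in PRC1CPM cells, led by *Map2*, with sums of 2013, 2314 and 3562 and 3878, 4223 and 4613 in PRC1CKO and 2223, 2664 and 2901 and 2905, 3087 and 4682 in PRC1CPM cells. Among 5 fibroblast markers tested, *Thy1* was higher (0.65 ± 0.23) and *Postn* lower (-2.13 ± 0.69) after OHT in PRC1CKO cells, *Col1a2* was higher in untreated PRC1CPM than PRC1CKO cells (1.38 ± 0.32), *Col1a1*, the most abundant, higher in the OHT-treated comparison (1.44 ± 0.36), and *Lum* was near 0. Between the untreated lines, the endoderm marker *Sox7* (-2.26 ± 0.42) and the neural marker *Sox1* (-1.40 ± 0.36) were lower in PRC1CPM cells. Between the OHT-treated lines, *Gata6* was lower (-1.78 ± 0.32) and the trophoblast marker *Plet1* higher (1.15 ± 0.27) in PRC1CPM cells. The fibroblast sums were 2037, 2673 and 5692 in untreated and 3126, 3496 and 3938 in OHT-treated PRC1CKO cells and 3709, 4633 and 14494 and 4509.9, 6201 and 14755 in PRC1CPM cells.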

How the data were processed

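RNA of 12 libraries was depleted of rRNA and sequenced as 80 bp paired ends. Per the methods, the authors removed rDNA reads with Bowtie 2, aligned the rest with STAR and Bowtie 2 to concatenated mm10 and dm6, kept unique alignments, dropped PCR duplicates (Sambamba) and summed reads along each of 20633 transcript bodies. The deposited values are a normalised signal: reads per gene body scaled by a DESeq2 size factor from *Drosophila* reads corrected by matched genomic DNA. Columns with the authors' log2 fold changes and adjusted p-values, and a list derived from them, were deposited too and were not used. The strand setting of counting is not given in the sources used here: same-strand genes nested in a host were above it in 0 of 152 cases and opposite-strand ones in 51 of 105.

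Whole reads were recovered from the values (100% within 0.02). *Ndn*, which has no intron, had an even count in all 12 libraries, as would follow if the mates of a pair were counted singly. The test was limma 3.58.1 (R 4.3.3) with a mean-variance trend on log2(value + 1) over 12 libraries, with 4 condition means and Benjamini-Hochberg adjustment over 16940 transcripts, and was tested on simulated data. Alternatives were DESeq2 1.42.0 and edgeR 4.0.16 on recovered reads, TMM scaling, no filter, a pseudocount of 0.1, a replicate block, the 6 libraries of a comparison alone, a fold above 2, no trend and leaving out each library. The trended prior carried 43.1 degrees of freedom beside 8 residual ones, so the spread of each gene was taken mostly from the trend, and wholly so with a replicate block. Same-numbered libraries deviated together across genes (mean r 0.205 over 18 pairs, against -0.102 over 36 pairs of unlike number), with every r over 0.1 except 1 of 0.0988 between untreated and OHT-treated PRC1CKO cells, so the blocked counts are given where they differ by over 1.5 times. Every member called is named, beside members that were not called and genes of other lists. Members and lists were chosen with earlier results of these data known. Genomic DNA libraries were not analysed here.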

Additional observations from a re-analysis of the deposited data

Results flagged for a closer look

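The response of *Grb10* to OHT differed between the lines by -1.77 ± 0.35 on the log2 scale (PRC1CPM minus PRC1CKO, limma, adjusted p = 0.0274), as a test of the difference itself. It rose by 2.63 in PRC1CKO and by 0.87 in PRC1CPM cells, and untreated PRC1CPM cells were already higher than untreated PRC1CKO cells by 3.06. Over the alternatives the difference ran from -2.14 to -1.55, with adjusted p from 2.74e-17 (limma with a replicate block) to 0.539 (limma with no trend). In the blocked fit the spread came wholly from the mean-variance trend, and with the block and no trend the adjusted p was 0.0892.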

How the results depend on the processing

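Of 46 calls of single genes over the 5 comparisons, 24 were called in every alternative, 22 were lost in at least 1 and 0 changed sign. With TMM scaling 5 genes were lower after OHT in PRC1CKO cells (6.69% of all transcripts), beside 3 (3.09%) with the spike-in scaling. With a fold above 2, 1 was lower in PRC1CKO cells (1.60% of all transcripts). In PRC1CPM cells 5 were higher and 0 lower (10.5% and 0.738% of all). There 14 of 47 had an unadjusted limma p under 0.05, and the share of all transcripts at that limit is not given here. With no trend, 5 were higher in PRC1CPM cells (11.8%) and 4 differed between the OHT-treated lines (1.03%). The interaction called 0 genes with no filter (0% of all transcripts), 0 with a pseudocount of 0.1 (0.0059%) and 0 with no trend (0%). Beside these, 7 genes had an unadjusted limma p under 0.05, and the share of all transcripts at that limit is not given here. DESeq2 and edgeR each called 1 gene, *Grb10* (adjusted p = 0.0440 and 0.0195), against 0.0885% and 0.0236% of all transcripts. These count tests take each recovered read as independent, and the reads outnumber the fragments if mates were counted singly. The cause was not tested. Leaving out libraries gave 10 to 19 higher and 3 to 4 lower in PRC1CKO cells (11.9% to 22.0% and 1.92% to 3.98% of all transcripts), 5 to 11 and 2 to 2 in PRC1CPM cells (8.49% to 15.0% and 0.726% to 2.00%), 7 to 15 between untreated lines (1.44% to 9.27%, with 15 genes and 9.27% without untreated PRC1CKO replicate 1), 6 to 9 between OHT-treated lines (0.685% to 2.82%) and 0 to 3 in the interaction (0.00590% to 0.165%). The fit without replicate 1 of all 4 conditions, chosen after seeing the data, called 6 between OHT-treated lines (0.850%) and 2 in the interaction (0.0354%), *Grb10* and *Sfmbt2*.

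With a replicate block, 17 genes were higher and 4 lower in PRC1CKO cells (20.3% and 4.86% of all transcripts), 11 and 3 in PRC1CPM cells (17.9% and 2.72%), 14 differed between untreated lines (11.1%), 12 between OHT-treated lines (8.05%) and 7 in the interaction (1.91%), or 6 with a replicate block in edgeR (2.02%) and 0 with a replicate block and no trend, both chosen after seeing the data. Depth limits *Slc22a3*, *Rasgrf1* and *Rtl1*, which had few reads.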

Other observations

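The 5 transcripts tested on chromosome Y had a median log2 difference of 2.93 between the untreated lines (PRC1CPM minus PRC1CKO), beside 0.09 over the 584 transcripts tested on chromosome X. *Tnnt3* and *Tnni2*, muscle troponin genes near *H19*, and *Ikzf1*, a lymphoid transcription factor gene near *Grb10*, were higher in untreated PRC1CPM cells together with their imprinted neighbours.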
